A study of Mus musculus with 6 samples.

Results

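The genes described here encode the phase II conjugating enzymes of mouse liver: UDP-glucuronosyltransferases and their relatives (Ugt1, Ugt2 and Ugt3), cytosolic sulfotransferases (Sult), glutathione S-transferases (Gst, classes alpha, kappa, mu, omega, pi, theta and zeta) and membrane-bound glutathione transferases (Mgst). Members were taken by gene symbol, with pseudogenes left out, which gave 66 of the 39179 genes counted. RNA was sequenced from livers of C57BL/6J mice, 3 labelled nonalcoholic steatohepatitis (NASH) and 3 labelled isolated steatosis. Both groups had eaten the same high-fat chow (60% kcal from fat) for 21 weeks, starting at 5 weeks of age, and all were obese. Haematoxylin and eosin staining of liver biopsies put each mouse in its group, so the groups differ in histology under 1 diet. The labels give no sex, and do not state that each library came from its own mouse, so a p-value measures only the spread between these samples.

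Conjugation makes lipophilic compounds soluble enough to leave the hepatocyte. Ugt enzymes attach a sugar, mostly glucuronic acid from UDP-glucuronic acid, to bilirubin, steroids, bile acids and drugs, and sit in the endoplasmic reticulum. Sult enzymes transfer sulfate from the donor PAPS to phenols, steroids and bile acids. Gst and Mgst enzymes attach glutathione to electrophiles, including aldehydes formed from peroxidized lipid, and several also reduce peroxides. The liver holds these enzymes at high levels, and the nuclear receptors CAR and PXR, the Ah receptor and the factor NRF2 are known to induce many of them.

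Libraries held 13909238 to 17577354 counts in NASH and 14883514 to 18002095 in steatosis. Mitochondrially encoded genes took 62.0% to 83.9% of a library, and reads at rRNA-like loci took 22.3% of NASH 3 and 8.96% of steatosis 2 but at most 1.06% of the others. Levels are given as CPM, counts relative to the TMM-scaled library size, and are low in absolute terms for that reason. Counts outside mitochondrial and rRNA-like genes were 2185922 to 2719869 in NASH and 3378730 to 5149189 in steatosis. Each NASH library was thus shallower for these genes than any steatosis library, and the part of this difference in the results was not tested. Hepatocyte markers (8 of 8 detected) summed to 9455 to 11860 CPM in NASH and 11330 to 12770 CPM in steatosis. Markers of hepatocytes around the central vein (8 of 8 detected) summed to 946.9 to 1320 CPM in NASH and 2272 to 2716 CPM in steatosis, and 3 of them were called lower (Cyp2e1, Cyp1a2 and Slc1a2). Those of hepatocytes around the portal vein (10 of 10 detected) summed to 464 to 1030 CPM in NASH and 474 to 1036 CPM in steatosis, and 2 of them were called higher (Sds and Gls2). The rest of this list went both ways and was not called. Without overlap, Ass1 was higher and Sdhd lower in NASH. With overlap, the means of Arg1, Hal, Cyp2f2 and Aldh1b1 were higher in NASH, and those of Pck1 and Hsd17b13 lower. Cholangiocyte markers (6 of 6 detected) reached 12.4 to 23.3 CPM in NASH and 23.9 to 42.0 CPM in steatosis. This sum was mostly Spp1, which overlapped between the groups, and Sox9 was higher in NASH without overlap (not called). The means of Krt19, Krt7, Epcam and Cftr were lower in NASH. Stellate cell markers (8 of 8 detected) reached 36.0 to 50.3 CPM in NASH and 56.4 to 68.5 CPM in steatosis. Of these, Dcn was called lower (means of 11.4 CPM in NASH and 23.1 CPM in steatosis). Every other stellate marker overlapped between the groups. The means of Des and Lrat were higher in NASH, and those of Col1a1, Col3a1, Pdgfrb, Reln and Ngfr lower. Summed markers of Kupffer cells, endothelium, lymphocytes and neutrophils overlapped between the groups. Within these lists Vsig4 (Kupffer cells), Pecam1 and Clec4g (endothelium) were higher in NASH without overlap (not called), and every other marker overlapped. Of 5 adipocyte markers Adipoq, Plin1 and Lep had no count, and the sum, nearly all Cfd, was 11.8 to 41.1 CPM in NASH and 33.8 to 126.7 CPM in steatosis. Of 5 enterocyte markers Cdx2 and Alpi had no count, and the sum, nearly all Fabp2 (called lower), was 7.5 to 10.7 CPM in NASH and 13.7 to 20.3 CPM in steatosis. The part of these shifts in the results that follow was not tested, and in bulk tissue fewer cells of a type and less RNA per cell cannot be told apart.

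Each conjugation enzyme gene that passed the test was lower in NASH livers. With p-values from the quasi-likelihood test of edgeR, adjusted by Benjamini and Hochberg's method over 11375 genes, 8 of 40 tested members fell (20% of them) at an adjusted p under 0.05, where 3.33% of all genes tested were called lower. No member was called higher, against 1.49% of all genes; 19 members had an unadjusted p under 0.05, all of them lower (47.5%, against 23.2% of all genes in either direction), DESeq2 and limma-voom called 0 higher, and without a count filter 2 were called higher (Gstm3 and Ugt2b38, chosen after their values were seen). The 8 were the glutathione transferases Gsto1, Gsta4, Gsta2, Gstt2 and Gstk1, the sulfotransferases Sult2a8 and Sult1c2, and the glucuronosyltransferase relative Ugt3a2. In 19 tested members all NASH values lay below all steatosis values (47.5%, against 16.2% of all genes tested), and in 0 above (13.1% of all genes, 29.3% in either direction). The median log2 fold change of the tested members was -0.58, beside 0.01 over all genes tested.

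The 26 untested members did not reach the count filter in enough libraries, and 13 of them had no count in any library. Ugt2b38 was untested with 61 counts over the NASH libraries, 49 of them in NASH 3, and 21 over the steatosis libraries. The filter can favour a gene that is high in 1 group: 34 members reached it in every library of both groups, and 6 of those fell (17.6%, against 3.55% of the 9642 genes that entered the same way). Gsta2 and Sult1c2 were among 5 members that reached it in every library of steatosis only. The count of 8 depended on single libraries. It was 1, 5 and 2 without NASH 1, 2 and 3, and 1, 1 and 7 without steatosis 1, 2 and 3. Calls over all genes fell as well, to 1.01%, 1.08% and 1.15% lower without NASH 1, 2 and 3, and to 0.656%, 0.726% and 2.60% without steatosis 1, 2 and 3. Without both NASH 3 and steatosis 2, the libraries rich in rRNA-like reads, it was 0 in the 4 libraries left, with 0.163% of all genes called lower. DESeq2 called 12 members lower, and 5.35% of all genes.

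**Figure D1:**
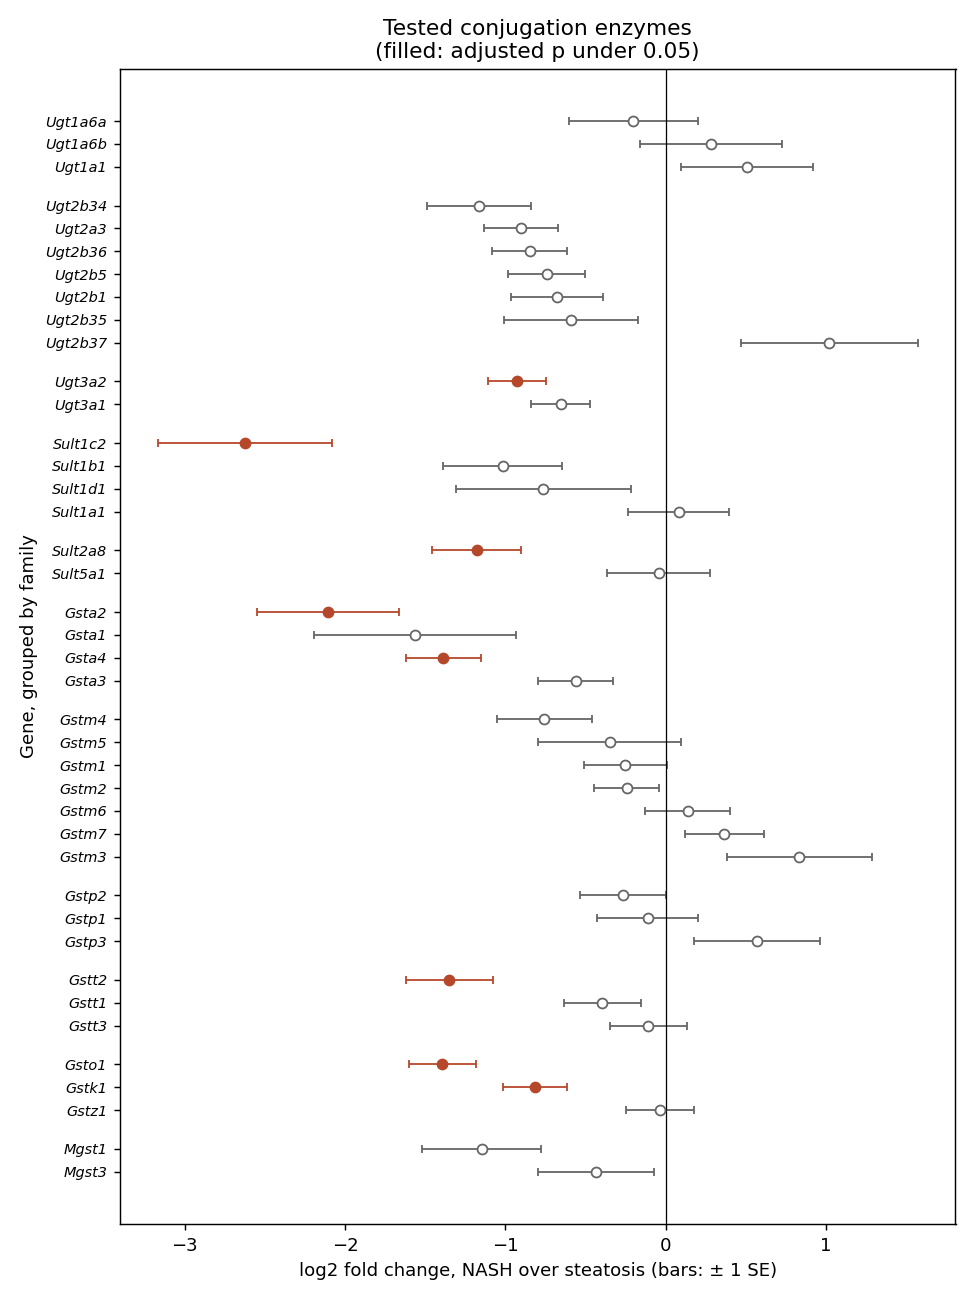
Log2 fold change of NASH over steatosis for the 40 tested members (x axis), grouped by family (y axis), with bars of 1 SE. Filled points are the 8 members with an adjusted p under 0.05, all of them left of 0, and 32 of the 40 points lie left of 0.

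Among glutathione transferases, 5 of 20 tested Gst genes fell and 0 rose, beside 3.33% of all genes tested called lower and 1.49% called higher. The 5 were spread over the alpha, theta, omega and kappa classes. Of these, Gsta2 reached the count filter in every library of steatosis only, so its call is tied to its entry into the test. Gsto1, an omega-class enzyme that reduces dehydroascorbate and methylated arsenic, was at 6.81, 4.82 and 6.27 CPM in NASH 1, 2 and 3, against 18.3, 13.5 and 15.1 CPM in steatosis 1, 2 and 3. The groups did not overlap, and the highest NASH value was under the lowest steatosis value by a wide margin. It fell by 1.39 on the log2 scale with an SE of 0.21, and its edgeR adjusted p of 0.00966 was the smallest of any member. Gsto1 was also the only one of the 8 whose call held in each of the 6 fits with 1 library left out (edgeR adjusted p = 0.0174 to 0.0395), though not without both rRNA-rich libraries (0.0719). Its paralog Gsto2 had 1 count in NASH 2 and none elsewhere.

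The alpha class is known for conjugating products of lipid peroxidation, and Gsta4 in particular for the aldehyde hydroxynonenal. Gsta4 stood at 3.06, 3.82 and 2.91 CPM in NASH 1, 2 and 3, against 9.86, 9.35 and 6.604 CPM in steatosis 1, 2 and 3. It fell by 1.39 on the log2 scale with an SE of 0.23 (edgeR adjusted p = 0.0128). The call was lost without NASH 1 (0.0503), steatosis 1 (0.0541) or steatosis 2 (0.0598). Gsta2 was at 0.347, 0.804 and 0.272 CPM in NASH, against 2.53, 2.46 and 1.48 CPM in steatosis, from 20 counts over the 3 NASH libraries and 122 over the 3 steatosis libraries. Gsta2 fell by 2.10 on the log2 scale with an SE of 0.44 (edgeR adjusted p = 0.0282), and the call was lost without NASH 1 (0.0907), NASH 3 (0.0737), steatosis 1 (0.108) or steatosis 2 (0.0992).

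The other alpha genes did not pass. Gsta3, which in mice detoxifies the aflatoxin epoxide, made up 95.7% of the summed CPM of the class in NASH and 91.9% in steatosis. It averaged 96.0 ± 19.5 CPM in NASH and 141.7 ± 14.6 CPM in steatosis (SD, n = 3 each, log2 fold change -0.56, edgeR adjusted p = 0.184), without overlap. Gsta1 had 0.139, 1.41 and 0.182 CPM in NASH, against 1.66, 2.34 and 1.45 CPM in steatosis (log2 fold change -1.56, edgeR adjusted p = 0.171). NASH 2 stood high, and without it the log2 fold change of Gsta1 was -3.44 and passed (edgeR adjusted p = 0.0236). Of the 150-base windows of Gsta1 transcripts, 73.7% also occur in another gene's transcripts, so its counts may have been split with a near-identical copy; for Gsta2 the share was 18.6%. The ratio of Gsta4 to Gsta3 within a library, which no scaling of libraries can change, was 0.0343 ± 0.00399 in NASH and 0.0616 ± 0.0166 in steatosis (SD, n = 3 each, chosen after the values were seen).

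Theta-class genes lie side by side on chromosome 10 and differed among themselves. Gstt2 was at 9.24, 16.9 and 12.4 CPM in NASH 1, 2 and 3, against 42.9, 29.1 and 26.6 CPM in steatosis 1, 2 and 3. It fell by 1.35 on the log2 scale, with an SE of 0.27 and an edgeR adjusted p of 0.024, but not past the threshold without NASH 1 (0.0741), NASH 3 (0.0703), steatosis 1 (0.086) or steatosis 2 (0.0685). Its neighbour Gstt1, known for dehalogenating small halogenated solvents, was at 78.1, 100.2 and 68.6 CPM in NASH, against 128.1, 105.7 and 90.9 CPM in steatosis, and the groups overlapped (log2 fold change -0.40, edgeR adjusted p = 0.359). The ratio of Gstt2 to Gstt1 was 0.118, 0.169 and 0.182 in NASH 1, 2 and 3, against 0.335, 0.276 and 0.292 in steatosis 1, 2 and 3, a comparison chosen after the values were seen. Gstt3 stood at 7.37 ± 2.25 CPM in NASH and 7.99 ± 0.794 CPM in steatosis (SD, n = 3 each, edgeR adjusted p = 0.829), and Gstt4 had no count.

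Gstk1, the kappa-class enzyme of mitochondria and peroxisomes, was at 16.7, 17.01 and 16.5 CPM in NASH 1, 2 and 3, against 36.1, 25.2 and 27.1 CPM in steatosis 1, 2 and 3. The NASH values nearly coincided and all lay below steatosis. Gstk1 fell by 0.82 on the log2 scale with an SE of 0.20 (edgeR adjusted p = 0.0457), and this call held least often. It was lost without any 1 library (edgeR adjusted p = 0.115, 0.112 and 0.112 without NASH 1, 2 and 3; 0.146, 0.0977 and 0.0631 without steatosis 1, 2 and 3). It was also lost with DESeq2's size factors in place of TMM, and when libraries were scaled to counts outside mitochondrial and rRNA-like genes (0.0719). Gstz1, the zeta-class maleylacetoacetate isomerase of tyrosine breakdown, was at 193, 214 and 186 CPM in NASH, against 202, 204 and 202 CPM in steatosis (log2 fold change -0.04, SE 0.21, edgeR adjusted p = 0.944).

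By edgeR 0 of 10 tested genes of the mu and pi classes passed (1 at an unadjusted p under 0.05, Gstm4, lower), and 0 by DESeq2 or limma-voom. Over all genes tested edgeR called 4.82% in either direction, so 0 of 10 does not set these classes apart. Gstm1, a broad electrophile scavenger, made up 90.9% of the summed CPM of the mu class in NASH and 92.2% in steatosis. It was at 375, 390 and 264 CPM in NASH 1, 2 and 3, against 489, 371 and 366 CPM in steatosis 1, 2 and 3. The groups overlapped (log2 fold change -0.25, SE 0.26, edgeR adjusted p = 0.601). The other 6 tested mu genes had log2 fold changes between -0.76 (Gstm4) and 0.83 (Gstm3). Gstm2 averaged 10.8 ± 1.22 CPM in NASH and 12.8 ± 2.48 CPM in steatosis, and Gstm6 10.04 ± 2.44 CPM in NASH and 9.22 ± 2.61 CPM in steatosis (SD, n = 3 each). Gstp1 was at 23.2 ± 9.11 CPM in NASH and 25.0 ± 7.83 CPM in steatosis (SD, n = 3 each, edgeR adjusted p = 0.873), and Gstp2 at 15.3 ± 5.01 CPM in NASH and 18.4 ± 3.91 CPM in steatosis (SD, n = 3 each, edgeR adjusted p = 0.594). The pair share 29.4% of the windows of Gstp1 with near-identical sequence, so reads may have been split. Gstp3 did not pass either (log2 fold change 0.57, edgeR adjusted p = 0.423).

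Mgst1, a glutathione transferase and peroxidase of the endoplasmic reticulum and outer mitochondrial membrane, held the highest level per kb of all members in steatosis. It was at 588, 208 and 501 CPM in NASH 1, 2 and 3, against 1123, 994 and 759.5 CPM in steatosis 1, 2 and 3. The groups did not overlap but NASH 2 lay far under the other NASH libraries, and the log2 fold change of -1.15 (SE 0.37) did not pass (edgeR adjusted p = 0.101). DESeq2 called it (adjusted p = 0.0155). Mgst3 averaged 8.25 ± 5.02 CPM in NASH and 11.3 ± 2.52 CPM in steatosis (SD, n = 3 each, edgeR adjusted p = 0.511). Mgst2, which also makes a cysteinyl leukotriene, had 3 counts over the NASH libraries and 7 over the steatosis libraries and was not tested. Scaled for depth, its ratio of NASH over steatosis was 0.636 (95% interval 0.106 to 2.79, for counting error only).

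**Figure D2:**
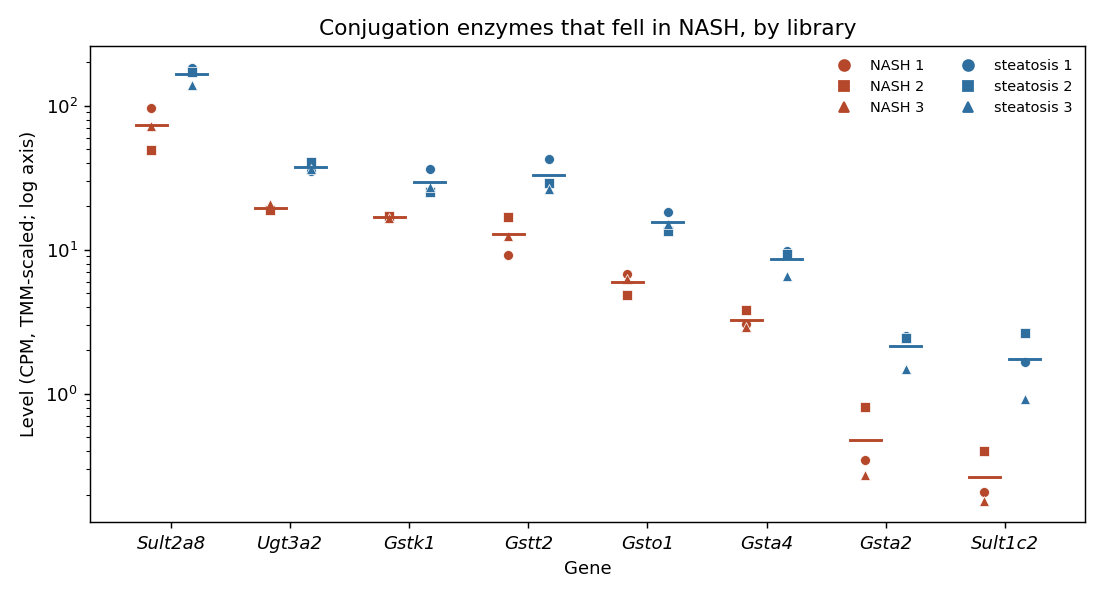
Level in each library of the 8 members that fell (y axis, CPM, log axis), with NASH in red at the left and steatosis in blue at the right of each gene, and a line at each group mean. In each of the 8 the NASH points lie below the steatosis points, from Sult2a8 at 49.4 to 96.3 CPM in NASH and 139 to 184 CPM in steatosis down to Sult1c2 under 0.5 CPM in NASH.

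The start regions of transferase genes are shown because the antioxidant response element, bound by NRF2, was described in this family. RefSeq promoter windows of GRCm38.p6, 250 bases before to 50 after the transcript start, were found for 58 members (70 windows). They were not found for Gsta4, Gstt2, Sult2a1, Sult2a2, Sult2a7, Sult4a1, Ugt1a6b and Ugt3a2. Capitals mark a match, on either strand, to TGACNNNGC (antioxidant response element core), GCGTG (Ah receptor core) or to the DR4 motif (a direct repeat of the nuclear receptor half-site that CAR can bind). The windows of Gsto1 (chr19:47854723-47855022, plus strand), of Sult2a8 (chr7:14446538-14446837, minus strand), of Gsta2 (chr9:78347096-78347395, minus strand), of Gsta3 (chr1:21240335-21240634, plus strand) and of Mgst1 (chr6:138140277-138140576, plus strand) read, 5′ to 3′:
Gsto1: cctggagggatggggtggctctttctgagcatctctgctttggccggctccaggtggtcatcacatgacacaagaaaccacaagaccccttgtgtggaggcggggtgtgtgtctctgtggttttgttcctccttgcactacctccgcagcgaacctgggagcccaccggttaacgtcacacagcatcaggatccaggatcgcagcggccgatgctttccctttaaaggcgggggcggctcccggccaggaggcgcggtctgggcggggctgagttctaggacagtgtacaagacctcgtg
Sult2a8: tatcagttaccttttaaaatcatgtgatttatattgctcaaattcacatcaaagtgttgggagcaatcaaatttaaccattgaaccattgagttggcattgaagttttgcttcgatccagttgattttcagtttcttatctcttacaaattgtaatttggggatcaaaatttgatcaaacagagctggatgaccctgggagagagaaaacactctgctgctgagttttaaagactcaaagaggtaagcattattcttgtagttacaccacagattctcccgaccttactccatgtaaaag
Gsta2: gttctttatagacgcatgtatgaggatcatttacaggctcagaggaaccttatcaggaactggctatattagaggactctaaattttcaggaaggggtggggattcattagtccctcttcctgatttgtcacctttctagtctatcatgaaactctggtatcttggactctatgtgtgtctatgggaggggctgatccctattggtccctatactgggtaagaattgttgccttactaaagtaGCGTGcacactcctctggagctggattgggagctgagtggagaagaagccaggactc
Gsta3: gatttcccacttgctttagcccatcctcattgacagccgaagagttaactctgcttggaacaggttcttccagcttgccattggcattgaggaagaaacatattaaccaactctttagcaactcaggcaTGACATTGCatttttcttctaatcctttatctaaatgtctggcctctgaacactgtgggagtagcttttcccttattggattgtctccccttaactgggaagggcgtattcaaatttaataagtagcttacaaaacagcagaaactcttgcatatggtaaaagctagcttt
Mgst1: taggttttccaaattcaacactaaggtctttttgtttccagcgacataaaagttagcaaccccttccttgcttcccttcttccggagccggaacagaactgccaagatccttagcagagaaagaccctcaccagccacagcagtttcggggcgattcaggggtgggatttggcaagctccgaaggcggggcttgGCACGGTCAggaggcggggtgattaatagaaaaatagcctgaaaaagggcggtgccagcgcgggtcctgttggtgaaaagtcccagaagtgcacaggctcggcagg
TGACNNNGC was found in the windows of 4 members (Gsta3, Gstm5, Gstm7 and Mgst1), 5.71% of member windows against 12.4% of the 32851 windows in the table. None of the 5 called members with a window held it. GCGTG stood in 20% of member windows against 32.4% of all windows, and among the called members only in that of Gsta2, 7 bases before the start. The DR4 motif was in 0 member windows and in 0.0152% of all windows. A match describes these letters only, and their absence describes only this window.

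Of 6 tested sulfotransferases 2 fell and 0 rose, beside 3.33% of all genes tested called lower and 1.49% called higher. Of the 2, Sult1c2 reached the count filter in every library of steatosis only, so its call is tied to its entry into the test. Sult2a8, known as a bile acid sulfotransferase of mouse liver, made up 89.6% of the summed CPM of the Sult2 to Sult6 genes in NASH and 94.8% in steatosis. It was at 96.3, 49.4 and 72.7 CPM in NASH 1, 2 and 3, against 184, 172 and 139 CPM in steatosis 1, 2 and 3. The groups did not overlap, and per kb of exon it was the most abundant of the 8 called members. It fell by 1.18 on the log2 scale with an SE of 0.28 (edgeR adjusted p = 0.0425). The call was lost without NASH 1 (0.0527), NASH 2 (0.108), NASH 3 (0.0974), steatosis 1 (0.137) or steatosis 2 (0.134), and when libraries were scaled to counts outside mitochondrial and rRNA-like genes (0.0528).

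Apart from Sult5a1, the other members of this group had few counts or none. Sult2a1, Sult2a2, Sult2a3, Sult2a4, Sult2a5 and Sult2a6, of which several are known as female-predominant in mouse liver, had no count in any library, nor had Sult3a2 and Sult6b1. A count of 0 over the 6 libraries allows a level of up to 0.0299 CPM (3 counts), for counting error only. Up to 20.6% of the windows of a Sult2a gene (Sult2a2) are shared with a near copy, and reads that map to both may not have been counted. Sult2a7 had 8 counts over the NASH libraries and 23 over the steatosis libraries. Scaled for depth, its ratio of NASH over steatosis was 0.516 (95% interval 0.200 to 1.195, for counting error only). Sult5a1 was at 8.11 ± 0.764 CPM in NASH and 8.45 ± 3.77 CPM in steatosis (SD, n = 3 each, edgeR adjusted p = 0.952). Sult2b1, a cholesterol sulfotransferase, Sult3a1, Sult4a1 and Sult6b2 had between 1 and 7 counts each over all libraries.

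Sult1 enzymes act on phenols, catecholamines, thyroid hormones and oestrogens. Sult1a1, the main phenol sulfotransferase, was at 37.9, 84.3 and 82.0 CPM in NASH 1, 2 and 3, against 78.6, 51.4 and 63.3 CPM in steatosis 1, 2 and 3, with overlap and an edgeR adjusted p of 0.912. Sult1d1, which acts on catecholamines, was at 46.1, 5.36 and 29.7 CPM in NASH, against 38.4, 46.8 and 52.5 CPM in steatosis. NASH 2 stood far under the others, and the log2 fold change was -0.76 with an SE of 0.55 (edgeR adjusted p = 0.442). Sult1b1, which sulfates thyroid hormones, was at 1.95, 0.938 and 3.18 CPM in NASH, against 4.19, 4.62 and 3.27 CPM in steatosis (log2 fold change -1.02, edgeR adjusted p = 0.132).

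Sult1c2 gave the steepest fold change of the called members on few counts, 11 over the NASH libraries and 96 over the steatosis libraries. Its levels were 0.208, 0.402 and 0.182 CPM in NASH 1, 2 and 3, against 1.66, 2.64 and 0.928 CPM in steatosis 1, 2 and 3. It fell by 2.62 on the log2 scale (SE 0.54, edgeR adjusted p = 0.0272). The call was lost without NASH 1 (0.0886), NASH 2 (0.0609), NASH 3 (0.0741), steatosis 1 (0.0883) or steatosis 2 (0.1). Limma-voom did not call it, and DESeq2 gave it no adjusted p, so it is not among the members that DESeq2 called. The oestrogen sulfotransferase Sult1e1 had 11 counts in NASH, 8 of them in NASH 3, and 14 in the deeper steatosis libraries. Its means were 0.310 CPM in NASH and 0.244 CPM in steatosis, and it was not tested. Sult1c1 had no count.

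Of 12 tested Ugt genes 1 fell, the glucuronosyltransferase relative Ugt3a2, and 0 rose. Over all genes tested 3.33% were called lower and 1.49% higher, and 1 gene of 12 is too few to set the Ugt genes apart from that. The Ugt2 genes, which conjugate steroids, bile acids and many drugs, lie in 1 cluster on chromosome 5 and had 9 members, 7 of them tested and 0 called. At an unadjusted p under 0.05 there were 5, all lower (23.2% of all genes reached it in either direction), and the same 5 had no overlap between groups; DESeq2 called 4 and limma-voom 2 of them. Ugt2b34 was at 76.8, 29.9 and 52.5 CPM in NASH 1, 2 and 3, against 107, 141 and 109.5 CPM in steatosis 1, 2 and 3 (log2 fold change -1.17, SE 0.33, edgeR adjusted p = 0.0686). Ugt2b36 was at 74.4, 54.8 and 53.1 CPM in NASH, against 93.6, 123.4 and 111 CPM in steatosis (log2 fold change -0.85, edgeR adjusted p = 0.0677). Ugt2b5 was at 67.4, 66.2 and 56.3 CPM in NASH, against 92.1, 135 and 91.1 CPM in steatosis (log2 fold change -0.74, edgeR adjusted p = 0.0968). Each of the 3 was lower in every NASH library than in any steatosis library.

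Of the remaining Ugt2 genes none passed. Ugt2a3 came closest to the threshold, with 23.1, 13.2 and 19.6 CPM in NASH, against 32.4, 34.6 and 37.4 CPM in steatosis (log2 fold change -0.90, SE 0.23, edgeR adjusted p = 0.0531). Ugt2b1 averaged 25.7 ± 9.42 CPM in NASH and 41.2 ± 7.49 CPM in steatosis (SD, n = 3 each, edgeR adjusted p = 0.189). Ugt2b35 and Ugt2b37 were between 0.402 and 3.08 CPM in every library and overlapped between groups, with log2 fold changes of -0.59 and 1.02. Ugt2a2 had no count, but 93.3% of its windows also occur in Ugt2a1, which was not among the genes counted. How reads of the shared sequence were treated is not given. Ugt2b5 shares 19.5% of its windows with Ugt2b38.

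Ugt3 enzymes use other sugars than glucuronic acid, as shown for the human proteins. Ugt3a2 was at 19.2, 18.9 and 20.6 CPM in NASH 1, 2 and 3, against 35.1, 40.3 and 36.3 CPM in steatosis 1, 2 and 3. Both groups were narrow and clearly apart. Ugt3a2 fell by 0.93 on the log2 scale with an SE of 0.18 (edgeR adjusted p = 0.0222), a result that did not pass without NASH 1 (0.0718), NASH 2 (0.0735), NASH 3 (0.0565), steatosis 1 (0.0602) or steatosis 2 (0.1). Its neighbour on chromosome 15, Ugt3a1, was at 7.99, 9.84 and 10.3 CPM in NASH, against 14.2, 15.6 and 14.4 CPM in steatosis, also without overlap (log2 fold change -0.66, SE 0.18, edgeR adjusted p = 0.068).

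Ugt1a genes share their last exons and differ in the exon that starts the transcript, so 9 genes compete for reads of the shared part, and the sources used here do not say how such reads were counted. Their counts were small, with 3 of 9 genes tested and 0 called by edgeR (0 at an unadjusted p under 0.05) or limma-voom. DESeq2 called 0 as well, but gave Ugt1a6b no adjusted p and so could not call it. Ugt1a1, the bilirubin glucuronosyltransferase, had 385 bases of exon shared with no other gene and was at 0.834, 1.14 and 2.09 CPM in NASH 1, 2 and 3, against 0.801, 1.20 and 0.816 CPM in steatosis 1, 2 and 3 (edgeR adjusted p = 0.502). Ugt1a6a, a phenol glucuronosyltransferase, averaged 2.28 ± 1.35 CPM in NASH and 2.55 ± 0.61 CPM in steatosis (SD, n = 3 each, edgeR adjusted p = 0.811). Ugt1a6b averaged 0.792 ± 0.343 CPM in NASH and 0.642 ± 0.12 CPM in steatosis (SD, n = 3 each, edgeR adjusted p = 0.751). Ugt1a5, Ugt1a9, Ugt1a2 and Ugt1a7c had at most 13 counts in a group, and Ugt1a8 and Ugt1a10 none. No difference was called in the Ugt1a genes.

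**Figure D3:**
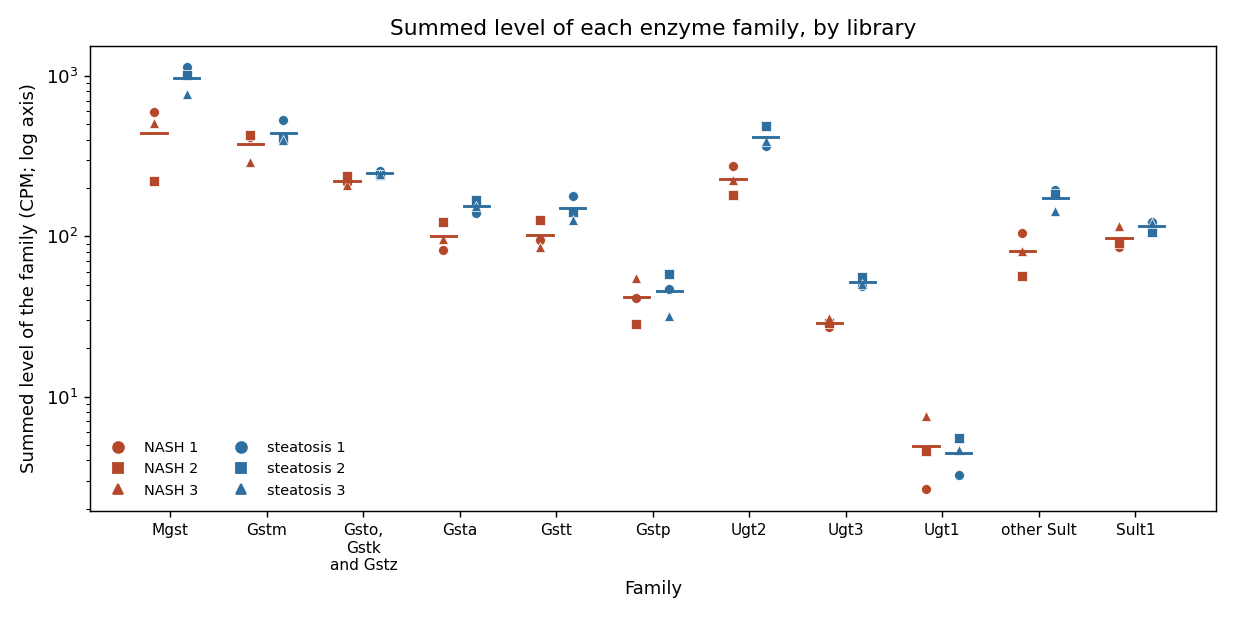
Sum of the CPM of all members of each family in each library (y axis, log axis), with NASH in red at the left and steatosis in blue at the right of each family (x axis) and a line at each mean. NASH lies below steatosis without overlap for Mgst, Gsta, Ugt2, Ugt3, the Sult2 to Sult6 genes and, narrowly, the omega, kappa and zeta group. The Gstm, Gstt, Gstp, Ugt1 and Sult1 sums overlap. The Mgst sum is nearly all Mgst1 and that of the omega, kappa and zeta group mostly Gstz1, neither of them called.

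Summing the CPM of each family gave the following levels. The Mgst sum was 441 ± 194 CPM in NASH and 970.2 ± 186 CPM in steatosis, and that of Ugt2 227 ± 46.0 CPM in NASH and 414 ± 64.7 CPM in steatosis (SD, n = 3 each). Mgst1, not called, made up 98.1% of the Mgst sum in NASH and 98.8% in steatosis. Gstz1, also not called, made up 89.7% of the omega, kappa and zeta sum in NASH and 81.8% in steatosis. The Gstm sum was 378 ± 75.2 CPM in NASH and 443 ± 76.5 CPM in steatosis, and the Gstp sum 41.6 ± 13.5 CPM in NASH and 45.6 ± 12.9 CPM in steatosis (SD, n = 3 each). Over all 66 members the sum was 1939, 1525 and 1704 CPM in NASH 1, 2 and 3, against 3022, 2859 and 2430 CPM in steatosis 1, 2 and 3. With libraries scaled to counts outside mitochondrial and rRNA-like genes, the Gsta sum and that of the omega, kappa and zeta group overlapped between groups (mean ratios of NASH over steatosis 0.702 and 0.963, against 0.65 and 0.89 with TMM). The other 4 separations held.

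Levels of different genes were compared per kb of exon shared with no other gene. Gstm1 and Mgst1 led in NASH, with means of 233 and 215 CPM per kb, and in steatosis they had 277 and 476 CPM per kb, so their order differed between the groups. Gstt1 ranked next in each group, with 53.8 CPM per kb in NASH and 70.9 CPM per kb in steatosis. Sult1a1 and Gstz1 followed in NASH (47.1 and 42.7 CPM per kb), while in steatosis Ugt2b5, Ugt2b36 and Sult2a8 came next (57.0, 53.1 and 50.2 CPM per kb) before Sult1a1 and Gstz1 (44.5 and 43.8 CPM per kb). The spread between libraries does not separate such close neighbours. The called members other than Sult2a8 ranked lower, with Gstk1 the next of them at 11.4 CPM per kb in NASH and 20.1 CPM per kb in steatosis.

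**Figure D4:**
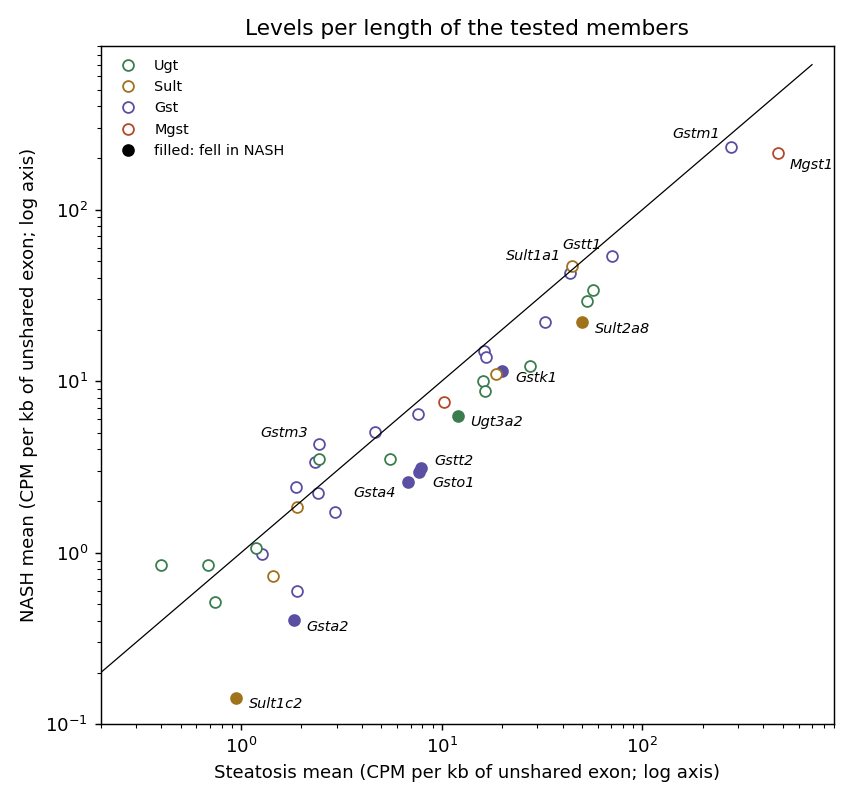
Mean level of each tested member per kb of unshared exon in NASH (y axis) against steatosis (x axis), both on log axes, with the line of equal levels; colours give the enzyme group and filled points the 8 members that fell. The filled points lie below the line, while Sult1a1 and Gstz1, at 47.1 and 42.7 CPM per kb in NASH, lie close to it.

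Genes that supply, complete or regulate conjugation were examined as further lists. The counts of these lists stand beside 3.33% of all genes tested called lower and 1.49% called higher. The median log2 fold change over all genes tested was 0.008. Of 11 tested genes of glutathione supply 2 fell and 0 rose (median log2 fold change -0.55). Gclm, the modifier subunit of the rate-limiting ligase, was at 20.4, 11.9 and 13.9 CPM in NASH 1, 2 and 3, against 30.3, 36.6 and 33.7 CPM in steatosis 1, 2 and 3 (log2 fold change -1.12, edgeR adjusted p = 0.0266), and its exons overlap a predicted gene on the opposite strand. Slc25a39, the mitochondrial glutathione importer, fell by 0.88 on the log2 scale (edgeR adjusted p = 0.0343), whereas Gclc, the catalytic subunit, did not pass (-0.61, edgeR adjusted p = 0.124). Of 13 tested genes of the mercapturate pathway, which processes glutathione conjugates, 3 fell and 1 rose. Nat8, which acetylates cysteine conjugates, was at 1.39, 0.335 and 1.91 CPM in NASH, against 5.54, 4.86 and 3.82 CPM in steatosis (log2 fold change -2.00, edgeR adjusted p = 0.0314). Its relative Nat8f5 was at 1.25, 0.737 and 1.18 CPM in NASH, against 6.72, 7.07 and 5.38 CPM in steatosis (log2 fold change -2.60, edgeR adjusted p = 0.00293), and the aminopeptidase Anpep fell by 0.89 (edgeR adjusted p = 0.0455). Kyat1, a cysteine conjugate beta-lyase, rose to 218 ± 71.2 CPM in NASH, against 85.7 ± 2.62 CPM in steatosis (SD, n = 3 each, edgeR adjusted p = 0.0233).

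The other cosubstrates are UDP-glucuronic acid and PAPS. Ugdh, which makes UDP-glucuronic acid itself, was at 22.3 ± 1.87 CPM in NASH and 31.9 ± 1.28 CPM in steatosis (SD, n = 3 each, log2 fold change -0.51, edgeR adjusted p = 0.12). Of 9 genes of PAPS and sulfate supply 1 rose, the PAPS transporter Slc35b3 (log2 fold change 1.02, edgeR adjusted p = 0.0317), which overlaps an opposite-strand gene, and 0 fell. Papss2, the PAPS synthase of liver, was at 25.4 ± 9.47 CPM in NASH and 27.1 ± 1.39 CPM in steatosis (SD, n = 3 each, edgeR adjusted p = 0.874).

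Of 17 other conjugating enzymes 1 fell and 0 rose: the methyltransferase Inmt was at 24.4, 33.4 and 24.6 CPM in NASH, against 101, 85.3 and 71.2 CPM in steatosis (log2 fold change -1.65, edgeR adjusted p = 0.00809). Of 13 carriers of conjugates 0 passed by edgeR (5 lower and 1 higher at an unadjusted p under 0.05, which 23.2% of all genes reached), with log2 fold changes of -0.91 for Abcc3 (edgeR adjusted p = 0.0925) and -0.31 for Abcc2 (edgeR adjusted p = 0.565). Of the 6 deconjugating enzymes 0 passed by edgeR, and 0 had an unadjusted p under 0.05. Among 16 transcription factors 1 fell, Nr1i3, which encodes CAR and whose exons overlap Tomm40l on the opposite strand. It was at 29.2, 33.9 and 28.2 CPM in NASH 1, 2 and 3, against 212, 161 and 92.3 CPM in steatosis 1, 2 and 3 (log2 fold change -2.35, edgeR adjusted p = 0.00554). For Nr1i2 (PXR) the log2 fold change was -0.63 and for Ahr -0.65, while Nfe2l2 (NRF2) had 0.66, and none passed (edgeR adjusted p = 0.29, 0.294 and 0.137). Of 14 tested NRF2 targets outside the transferases 3 fell (Ephx1, Prdx1 and Gclm) and 1 rose (Pgd), and Nqo1 did not pass (log2 fold change -0.39, edgeR adjusted p = 0.505). Libraries were not left out in turn for the genes of these lists.

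**Figure D5:**
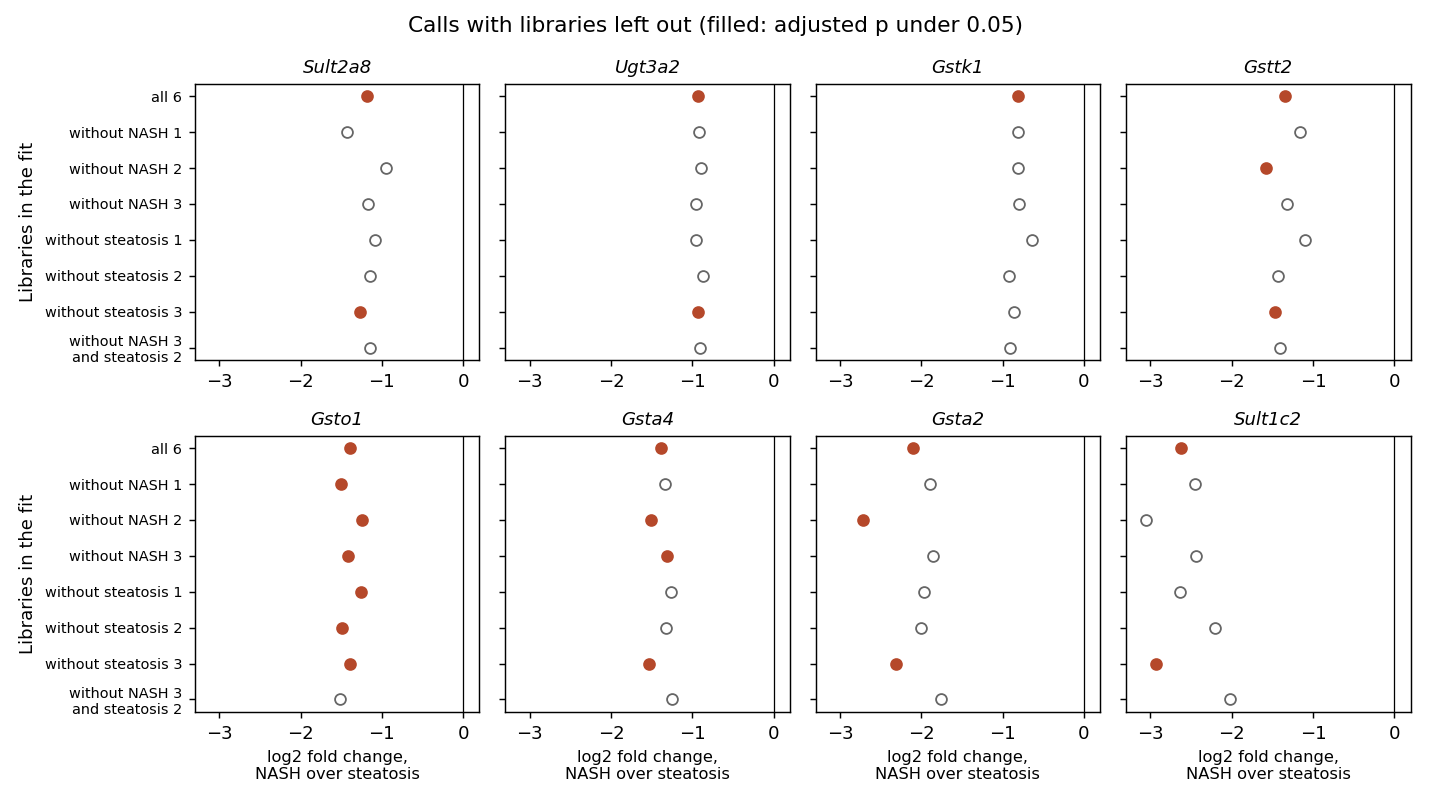
Log2 fold change of NASH over steatosis (x axis) of the 8 members that fell, in the fit of all 6 libraries and in fits with libraries left out (y axis); filled points have an adjusted p under 0.05. All points lie left of 0, Gsto1 is filled in every fit that leaves out 1 library, and no gene is filled without both NASH 3 and steatosis 2.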

How the data were processed

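For each of 6 libraries the authors deposited raw counts for 39179 Ensembl identifiers. Per the submitters' processing notes the authors used TopHat2, HTSeq and the mm10 (GRCm38) genome, and per the labels' protocols the libraries were polyadenylated RNA read as pairs. Not given in the sources used here are versions, annotation, strandedness and how multi-mapped reads were handled. Symbols were found for 37693 identifiers, and exon lengths are from GENCODE M21. Counts were filtered with edgeR 4.0.16 in R 4.3.3 (its default filter), scaled with TMM and tested over all genes by the quasi-likelihood test. TMM factors were 0.79 to 0.91 in NASH and 0.96 to 1.50 in steatosis. An SE is the log2 fold change divided by the root of F. The test was checked on simulated data. Alternatives were DESeq2 1.42.0, limma-voom (limma 3.58.1), other scalings, filters and thresholds, the replicate number as a block, and libraries left out. Members and gene lists were chosen with earlier results of these data known. Named are all called members, the 3 most abundant of each family, called genes of the other lists (at most 4 a list) and 10 fixed genes; others were chosen after their values were seen. 1 result of the list of UDP-glucuronic acid supply is not reported here. No 2 libraries of 1 group agreed within sampling noise.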

Additional observations from a re-analysis of the deposited data

How the results depend on the processing

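Each of the 8 members that fell had a log2 fold change below 0 in every alternative tried in which it was tested. The count of members lower was 12 by DESeq2 (5.35% of all genes lower), 9 by limma-voom (3.24%), 7 with DESeq2's size factors (2.95%), 6 with libraries scaled to counts outside mitochondrial and rRNA-like genes (1.97%, where the median over all genes moved to 0.12 on the log2 scale), and 8 with a minimum of 1 CPM in 3 libraries (3.74%). Without a filter it was 16 (4.61%), with 2 higher. At an adjusted p under 0.1 it was 13, and at an adjusted p under 0.01 it was 1. The share of all genes at these thresholds is not given here, so neither count can be read against it. With 1 library left out the count of members lower ranged from 1 to 7, and without both rRNA-rich libraries it was 0. These fits have fewer libraries by construction. Same-numbered libraries did not deviate together (correlations of 0.0312, -0.029 and 0.0653), so the numbers pair nothing; with the replicate block 7 members were lower (2.75% of all genes) and 0 higher, Gstk1 not passing (adjusted p = 0.0642). The no-overlap count was 19 with TMM, where 29.3% of all genes had no overlap in either direction. It was 18 with DESeq2's size factors and 16 under the other scaling, for which no share of all genes is given here.

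Signs turned in 8 tested members, none of them called in any of these fits, and the cause was not tested. Sult5a1 had log2 fold changes of 0.10 by limma-voom, 0.083 under the other scaling, 0.043 with the replicate block, 0.22 without both rRNA-rich libraries, and -0.37 to 0.21 with 1 library left out. Under the other scaling Gstt3 had 0.01 and Gstz1 0.077, and without both rRNA-rich libraries Gstt3 had 0.012, Gstz1 0.012 and Sult1a1 -0.21. With 1 library left out Gstt3 lay between -0.33 and 0.10, Gstz1 between -0.08 and 0.015, Gstp1 between -0.45 and 0.14, Ugt1a6a between -0.71 and 0.16, Gstm6 between -0.064 and 0.33, Gstm5 between -0.59 and 0.093, and Sult1a1 between -0.084 and 0.37. Depth limits members with few counts, such as most Ugt1a genes, Gsta2 and Sult1c2.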

Other observations

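Some members differed widely between libraries of a group. Ugt2b38 was not tested after the count filter, Gstm3 was tested and not called, and both were called higher without a filter. Ugt2b38 was at 0.486, 0.335 and 4.45 CPM in NASH 1, 2 and 3, against 0.308, 0.480 and 0.297 CPM in steatosis 1, 2 and 3. Gstm3 was at 6.39, 8.77 and 1.73 CPM in NASH 1, 2 and 3, against 4.31, 2.58 and 2.78 CPM in steatosis 1, 2 and 3. NASH 2 held the lowest level of Mgst1, Sult1d1, Sult2a8, Ugt2b34 and Ugt2a3 among the 6 libraries.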
